A study of Mus musculus with 4 samples.

Results

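Genes for transcription factors that specify the B lineage were examined, 10 in all: Pax5, Ebf1, Ikzf1, Ikzf3, Tcf3, Foxo1, Spi1, Spib, Irf8 and Bach2. They were chosen by name, with the older symbols Tcfe2a for Tcf3 and Sfpi1 for Spi1, and make up 10 of the 28307 genes or names on the array. The name rule found 19 probes. Of these, 2 named Tcf3 in the array design carry the RefSeq accession of Tcf7l1, a factor of the Wnt pathway on chromosome 6 that is also called Tcf3, and were left out. The other 17 probes were used: 4 for Ikzf3, 2 each for Ebf1, Tcf3, Foxo1 and Irf8, and 1 each for the other 5 genes. All 17 were well above background on all 4 arrays.

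B cells expressing B220 were isolated fresh from naive mice and compared between animals labelled Mef2c KO and C57BL/6 animals, the wild type (WT), in bone marrow and in spleen. Each of the 4 groups was measured on 1 Agilent 1-colour array of total RNA. Mef2c encodes a transcription factor of the MADS box family, and the series title speaks of its deficiency delaying B cell development. The deleted part of Mef2c, the way it was deleted, the strain background of the KO animals, their age and the number of animals behind an array are not stated by the labels or file headers. With 1 array per group no difference below has a replicate check. Each slide held 1 tissue, and KO and WT had fixed positions on both slides, so slide and tissue, and position and genotype, cannot be told apart. In bulk RNA, fewer cells of a type and less RNA per cell cannot be told apart either.

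B-lineage commitment is built up in steps. Spi1 (PU.1) and Ikzf1 (Ikaros) act in early progenitors, Tcf3 (E2A) and Foxo1 help to switch on Ebf1, and Ebf1 and Pax5 then activate B cell genes and silence those of other lineages. Irf8 acts with Spi1 and its relative Spib at shared sites, Ikzf3 (Aiolos) is the Ikaros relative of later B cell stages, and Bach2 is a repressor that holds back the plasma cell programme and myeloid genes.

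Array data of this kind rest on 60-base probes, and 3 of the factors are read by 1 probe that lies across an exon junction, since its ends are farther apart in the genome than its own length. Their sequences are shown whole because each carries everything known here about its gene. Positions are on build mm9: Pax5 at chr4:44550354-44582908 on the minus strand, Ikzf1 at chr11:11658319-11661278 on the plus strand and Spi1 at chr2:90939665-90953452 on the plus strand.
Pax5: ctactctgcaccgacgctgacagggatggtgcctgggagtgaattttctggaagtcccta
Ikzf1: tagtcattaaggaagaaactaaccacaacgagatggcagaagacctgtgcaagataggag
Spi1: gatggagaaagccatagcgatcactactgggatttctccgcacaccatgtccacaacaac

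The first 30 bases of the Ikzf3 and Irf8 probes are given next, because the probes of these genes gave different answers. The Ikzf3 probes lie on the minus strand of chromosome 11, at chr11:98345606-98345665 (AK004152), chr11:98375101-98375159 (AK036657), chr11:98328428-98328487 (NM_011771) and chr11:98328719-98328778 (AF001293). The Irf8 probes lie on the plus strand of chromosome 8, at chr8:123280324-123280383 (first) and chr8:123279889-123279948 (second).
Ikzf3 AK004152: ggttttatcaaggaccctcattgaccgtct
Ikzf3 AK036657: caaagaccaaatacatctttgcaatgtact
Ikzf3 NM_011771: tgatggatgtgtttcgatgtgaccactgcc
Ikzf3 AF001293: atatgccaatgggggccccgcaggagatgg
Irf8 first: aacagacagggtcgacagagtgtgtgatac
Irf8 second: ccaatctggctgtccaacctagtttgtaag

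Levels are log2 of the background-corrected signal relative to the 75th percentile of gene spots on the same array, and differences are KO minus WT or spleen minus marrow on that scale. A gene with several probes is given by its brightest. Levels of different genes come from different probes and are not set against each other. The 75th percentile of the spleen KO array, 524, was below those of the other 3, at 966 to 1012, and 59.3% of gene probes were well above background on spleen KO, against 69.1% to 72.0%. Among 245 probes with 10 spots each, the median SD between spots was 0.10 to 0.14, a technical error only. This spot SD is 1 value per array and is not matched to a probe's brightness. Whether it holds for dim probes such as those of Pax5 and Spi1 was not tested. All 9 of 10 B-lineage markers that were on the array were well above background on every array. The brighter of 2 Mef2c probes was not lower on the KO arrays, with a difference of 0.32 in marrow and 1.36 in spleen. The dimmer one was at 0.36 in marrow and lower on KO in spleen (-0.61, signals of 128 and 364). Whether either lies in the deleted part is not known, so they do not settle the labels, and KO below means the arrays labelled KO. Both probes of the 18S ribosomal RNA, Rn18s, were far lower on the KO arrays, by -2.43 and -3.55 in marrow and by -7.72 and -12.96 in spleen. The part of RNA quality or labelling in the differences below was not tested.

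**Figure D1:**
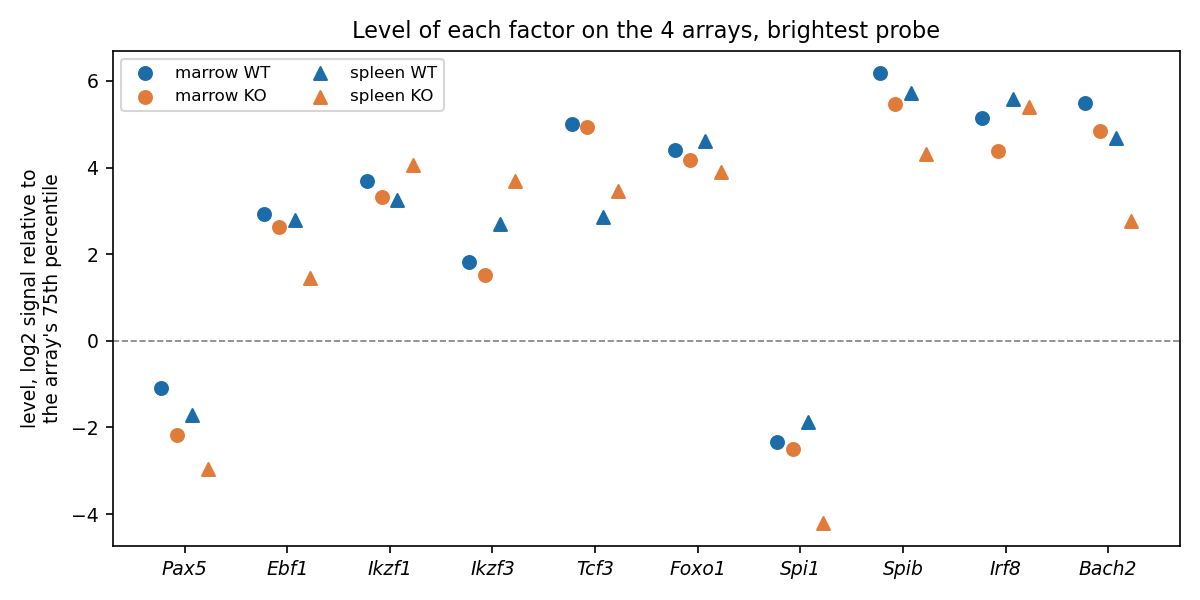
Level of each factor (log2 signal relative to the array's 75th percentile) on the 4 arrays, by brightest probe; circles are marrow, triangles spleen, blue WT and orange KO, with 1 array per point and no error bar. In 6 factors (Pax5, Ebf1, Foxo1, Spi1, Spib, Bach2) the spleen KO array is lowest, while for Ikzf1 and Ikzf3 it is highest.

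In marrow all 10 factors were lower on the KO array, with a median difference of -0.34. Over the 19344 genes well above background on both marrow arrays the median was -0.05, and 54.7% were below 0. By brightest probe only Pax5 was at least 2-fold lower, and 0 were at least 2-fold higher. Over all 21232 genes measured 13.2% were at least 2-fold apart, 4.87% lower and 8.37% higher, against which the 1 of 10 is to be read. The differences of Ebf1, Ikzf3, Tcf3, Foxo1 and Spi1 lay within 2 combined spot SDs, 0.31, and those of the other 5 factors beyond it. In spleen, where the Rn18s probes differed most, 7 factors were lower on KO and 3 higher, with a median of -0.99. Over the 16735 genes well above background on both spleen arrays the median was 0.27, and 39.3% were below 0. In spleen 5 factors were at least 2-fold lower (Pax5, Ebf1, Spi1, Spib, Bach2) and 0 higher. Of all 19811 genes measured there, 34.2% were 2-fold apart, 14.6% lower and 19.6% higher. Only Irf8 lay within 2 spot SDs in spleen, 0.36.

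The spleen comparison depends on scaling more than the marrow one. Of the genes at least 2-fold apart in spleen, 57.4% were higher on KO. That share was 79.7% when arrays were scaled to their median, 69.7% after normexp background correction, 46.7% with the median over probes and 36.5% when the percentile was taken over probes above background on all arrays. The median over genes well above background on both spleen arrays moved between -0.06 and 0.69 over these settings. The 5 factors that were 2-fold lower in spleen stayed below 0 under all 9 settings, the main one included. Dropping the filter left the factor values unchanged, and the other probe rules cannot change a factor with 1 probe. With scaling to the array median only 2 of the 10 were still 2-fold lower.

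**Figure D2:**
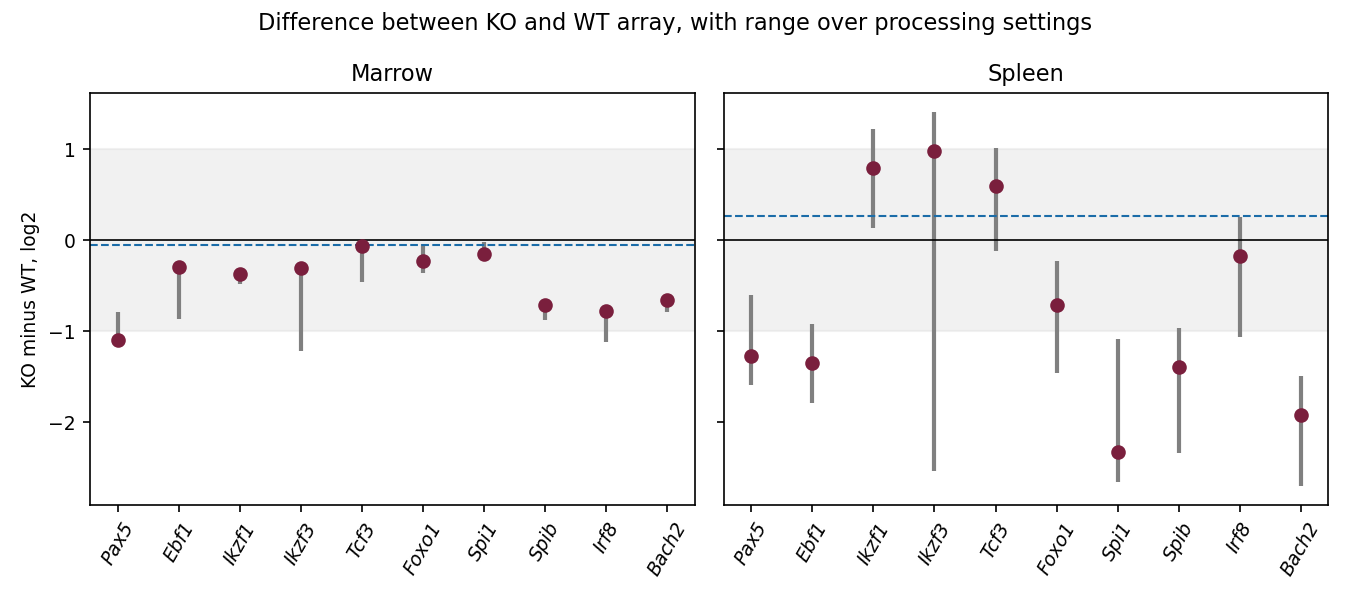
Difference between the KO and the WT array (log2) of each factor in marrow (left) and spleen (right). Points are the main values, and bars the range over 9 processing settings, the main one included, not a replicate error. The grey band marks less than 2-fold. The dashed line is the median of genes well above background on both arrays (-0.05 and 0.27).

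Pax5, the paired-domain factor that commits cells to the B lineage, had levels of -2.18 (KO) and -1.09 (WT) in marrow and of -2.97 (KO) and -1.71 (WT) in spleen. Both WT arrays lay above both KO arrays, and no neighbours in this order lay within 2 spot SDs. On its only probe KO was lower by 2.13-fold in marrow and 2.41-fold in spleen. By brightest probe no other factor was at least 2-fold lower in both. Dimmer probes of Ebf1 (-1.42 and -1.94), Ikzf3 (-1.22 and -2.54) and Irf8 (-1.46 and -1.69) were, in marrow and spleen. Both Pax5 calls depend on the setting: the marrow difference was -0.79 with normexp and -0.98 with cyclic loess. The spleen difference was -0.60 with normexp, -0.84 with array median scaling, -0.89 with quantile normalization and -0.91 with cyclic loess. The processed signals behind this, before scaling, were 223 against 453 in marrow and 66.8 against 298 in spleen. Over both tissues limma's genotype estimate was -1.18 (SE 0.52), with an adjusted p of 0.473.

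Ebf1, the zinc finger factor that acts with Pax5, had levels of 2.64 (KO) and 2.94 (WT) in marrow and of 1.44 (KO) and 2.79 (WT) in spleen. Only spleen KO stood apart, and the other 3 arrays were neighbours within 2 spot SDs. KO was lower by 1.23-fold in marrow and 2.54-fold in spleen, where array median scaling gave a difference of -0.92. A second Ebf1 probe, from transcript AK036716 and 355.7 kb from the first, gave -1.42 in marrow and -1.94 in spleen, so both probes were lower on KO in both tissues. Between tissues they disagreed, with -0.15 for the first and 1.29 for the second on WT, and -1.20 and 0.77 on KO.

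Tcf3, the E protein that starts the programme with Foxo1, had levels of 4.95 (KO) and 5.01 (WT) in marrow and of 3.45 (KO) and 2.86 (WT) in spleen. The marrow arrays were not separable by spot error, and both spleen arrays were lower. The tissue difference was 4.44-fold on WT. KO was 1.51-fold higher in spleen by this probe, though before scaling the processed signals were 5714 (KO) and 7039 (WT). Over the settings the spleen difference ran from -0.12 to 1.02. The second Tcf3 probe, 3.32 kb away, was lower on KO in spleen (-0.57) and in marrow (-0.86). Both probes were lower in spleen than in marrow, by -2.15 and -2.42 between the WT arrays, and so they were between the KO arrays. Limma's tissue estimate was -1.82 (SE 0.53) with an adjusted p of 0.086.

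Foxo1, the forkhead factor that supports Rag and Il7r expression, had levels of 4.18 (KO) and 4.41 (WT) in marrow and of 3.89 (KO) and 4.61 (WT) in spleen. Neighbours in this order were within 2 spot SDs throughout. KO was lower by 0.23 in marrow and 0.71 in spleen. The second probe, 3.11 kb toward the 3′ end, gave -0.04 and -0.23, so both probes had 1 sign but small values.

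Ikzf1 had levels of 3.32 (KO) and 3.69 (WT) in marrow and of 4.06 (KO) and 3.26 (WT) in spleen. KO was 1.29-fold lower in marrow and 1.74-fold higher in spleen, on the single probe shown above. Before scaling the processed signals in spleen were 8716 (KO) and 9310 (WT), and the spleen difference ran from 0.13 to 1.22 over the settings. Spleen KO and marrow WT, and marrow KO and spleen WT, were within 2 spot SDs.

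Ikzf3 gave the widest disagreement among probes of these factors in KO against WT. Ebf1 was wider between tissues (1.43 against 1.33 on WT, 1.97 against 1.72 on KO). Its brightest probe, AK004152, had levels of 1.51 (KO) and 1.82 (WT) in marrow and of 3.69 (KO) and 2.71 (WT) in spleen, which put KO 1.97-fold higher in spleen. The RefSeq probe, NM_011771, with signals of 189 (KO) and 420 (WT) in marrow and 143 (KO) and 1541 (WT) in spleen, gave -1.22 in marrow and -2.54 in spleen. The AK036657 probe was near 0 in both tissues (0.01 in marrow, -0.01 in spleen), and AF001293 gave -0.68 and -0.76. AF001293 is the dimmest, with signals of 33.7 (KO) and 51.4 (WT) in marrow and 23.9 (KO) and 75.4 (WT) in spleen. The range of the spleen difference over the 4 probes was 3.52, and 49.2% of 5133 genes with several probes had probes over 2-fold apart in spleen, against 12.6% of 6031 in marrow. All 4 probes were higher in spleen than in marrow, by 0.46 to 2.17 between the KO arrays and 0.54 to 1.87 between the WT arrays.

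**Figure D3:**
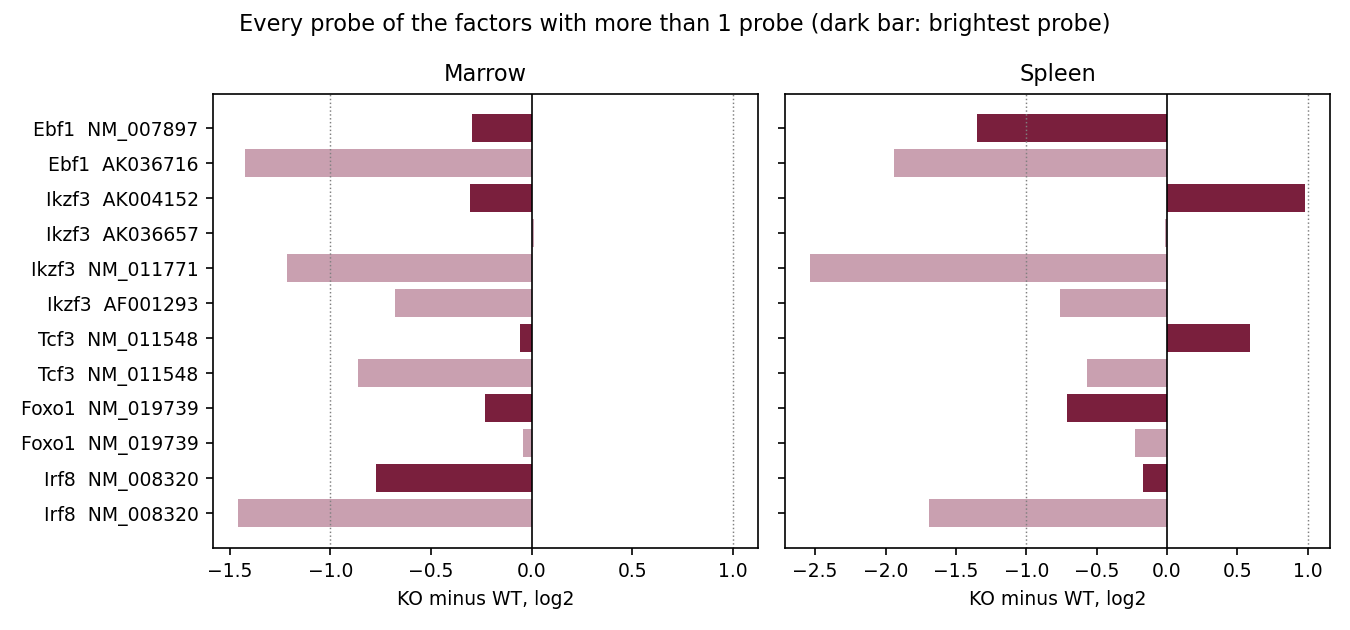
Difference between the KO and the WT array (log2) for each of the 12 probes of the 5 factors with several probes, marrow left and spleen right, dark bars for the brightest probe and light bars for the others. In spleen the brightest probes of Ikzf3 and Tcf3 (0.98 and 0.59) are the ones above 0.

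Spi1, the ETS factor of progenitors, myeloid cells and B cells, had levels of -2.50 (KO) and -2.34 (WT) in marrow and of -4.21 (KO) and -1.88 (WT) in spleen. KO was within the spot error in marrow and 5.02-fold lower in spleen. Its processed signal was 28.3 on spleen KO against 264 on spleen WT, and the difference moved between -2.65 and -1.08 over the settings.

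Spib, the ETS factor of B cells and plasmacytoid dendritic cells, had levels of 5.46 (KO) and 6.18 (WT) in marrow and of 4.32 (KO) and 5.71 (WT) in spleen. KO was lower by 1.64-fold in marrow and 2.62-fold in spleen, where array median scaling gave a difference of -0.96. Marrow KO and spleen WT lay within 2 spot SDs.

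Irf8, an interferon regulatory factor that partners with ETS factors, had levels of 4.38 (KO) and 5.15 (WT) in marrow and of 5.41 (KO) and 5.58 (WT) in spleen. KO was 1.71-fold lower in marrow and within spot error in spleen. The second probe, only 435 bases away, gave -1.46 in marrow and -1.69 in spleen, so the probes had 1 sign but differed by 1.52 in spleen.

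Bach2, the repressor of the plasma cell programme, had levels of 4.83 (KO) and 5.49 (WT) in marrow and of 2.77 (KO) and 4.69 (WT) in spleen. KO was lower by 1.58-fold in marrow and 3.79-fold in spleen, and spleen KO lay apart from the other 3 arrays. Limma's genotype estimate was -1.29 (SE 0.56), with an adjusted p of 0.471.

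By limma over 4 arrays with tissue and genotype as terms (22059 genes, 1 residual degree of freedom), 0 of 10 factors passed an adjusted p of 0.05 for genotype (adjusted p of 0.471 to 0.917) or for tissue (0.086 to 0.986). For genotype 2 genes (0.00907%) were called, both higher (0.00907%) and 0 lower, and 10.5% had an unadjusted p under 0.05, as had 1 of 10 factors, Bach2. For tissue 7.05% were called, 2.38% higher and 4.68% lower, and 19.9% had an unadjusted p under 0.05, as had 3 factors, Tcf3, Ikzf3 and Bach2. This fit treats marrow and spleen as 2 repeats of the genotype difference and cannot test whether the effect differs between them.

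Across tissues on WT arrays 1 factor, Tcf3, was at least 2-fold lower in spleen and 0 higher. Of all 21447 genes measured, 31.2% were 2-fold apart, 15.6% lower and 15.6% higher. The median of the factors was -0.29, beside -0.07 over the 18579 genes well above background on both WT arrays. Ebf1 and Foxo1 lay within 2 spot SDs, 0.32. On KO arrays 5 factors were at least 2-fold lower in spleen (Ebf1, Tcf3, Spi1, Spib, Bach2) and 2 higher (Ikzf3, Irf8). Of all 20320 genes measured, 29.5% were 2-fold apart, 14% lower and 15.6% higher. The median of the factors was -0.97, beside 0.19 over the 16777 genes well above background on both KO arrays. Of the factor calls between KO arrays, that of Ebf1 rests on 1 of 2 probes, with -0.21 for their median. Irf8 gave 1.02 by the first probe and 0.11 by the second, and Spi1 -1.71, or -0.61 with normexp. The 2 tissue comparisons share no array, but each shares 1 array with each genotype comparison.

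Likeness over the 4 arrays was measured as the distance between centred level profiles, among 16516 genes. Pax5 and Spib were each other's nearest factor, at a distance of 0.30, with Spib at rank 23 from Pax5. From Ebf1 the nearest factor was also Spib (0.32, rank 121). From Bach2 it was Spib (0.73, rank 130), and from Spi1 it was Ebf1 (0.70, rank 245). The other 5 factors had their nearest factor at rank 2655 or beyond. The nearest genes were Eftud2 to Pax5 (0.0721), Kdm8 and Gapdh to Ebf1, Isoc2a and Git2 to Spib, Eif4ebp2 and St6galnac6 to Spi1, and Dap and Ankrd13d to Bach2. They were Sox10 and Pnmal1 to Ikzf1, Rsph10b2 and Rel to Ikzf3, Haus4 and Hmga1 to Tcf3, Atp13a3 to Foxo1 and Ccnk to Irf8, where unnamed transcripts are left out. With 4 points that share the scaling of each array, this is a description.

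Genes known from other work as targets of the factors were summarised by lists that share some members, such as Cd79a. Among 14 genes activated by Pax5 or Ebf1, KO marrow had 1 at least 2-fold higher and 5 lower (median -0.21), and KO spleen had 3 higher and 3 lower of 13 (median -0.24). Lower in both tissues were Fcer2a, the low-affinity IgE receptor (-3.05 in marrow, -3.98 in spleen), and Cd79a, a signalling chain of the B cell receptor (-1.87 and -2.47). The kinase Blk was also lower in both (-1.63 and -2.32), and the complement receptor Cr2 in marrow (-1.70). Vpreb1, of the surrogate light chain, was higher (1.34 and 1.80), and in spleen so were the coactivator Pou2af1 (2.17) and the adaptor Blnk (1.58).

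Of 11 genes repressed by Pax5, 10 were measured in marrow (2 higher, 1 lower, median 0.69) and 11 in spleen (0 higher, 5 lower, median -0.88 with Cd28 at its bound). Fcer1g, the common gamma chain of Fc receptors (2.08), and the chemokine Ccl3 (1.34) were higher in marrow. Jchain, the joining chain of secreted antibodies, was lower in marrow (-2.54) and spleen (-2.25), and in spleen Flt3, a progenitor receptor (-1.46), and the adaptor Grap2 (-1.30) were lower too. The 8 genes activated by Tcf3 had 2 higher and 1 lower in marrow (median 0.09) and 1 higher and 2 lower of 6 in spleen (median -0.15). Dntt, which adds nucleotides at V(D)J joints, was higher in marrow (1.54), and Id3, an inhibitor of E proteins, lower in spleen (-2.58). Between WT tissues 6 of the 8 were lower in spleen, with a median of -5.18 over the 8, of which 2 (Igll1 and Rag2) are at their bound.

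The Foxo1 targets had medians of -0.04 over 10 genes in marrow (1 higher, 1 lower) and 0.23 over 9 in spleen (2 higher, 0 lower). The stress gene Gadd45a was higher in both (1.04 and 1.83), the cyclin Ccng2 higher in spleen (1.68) and the homing receptor Ccr7 lower in marrow (-1.27).

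Among 15 genes activated by Spi1 or Spib, KO marrow had 8 at least 2-fold higher and 1 lower (median 1.15), and KO spleen 5 higher and 3 lower (median 0.63). The granulocyte receptor Csf3r (4.49), the integrin Itgam (3.53) and the Fc receptor Fcgr3 (3.04) were the highest in marrow. In spleen P2ry10, a G protein-coupled receptor (2.79), and the Fc receptors Fcgr1 (2.37) and Fcgr2b (1.97) were highest, and besides Cd79a the receptor Csf1r (-1.05) and the oxidase subunit Ncf1 (-1.04) were lower. Of the neutrophil markers, 13 of 14 were at least 2-fold higher in KO marrow with 0 lower, and 7 of 13 in KO spleen with 1 lower. Csf3r is in both lists, and in KO spleen it differed by 0.26. The summed relative signal of the neutrophil markers was 1533 (KO) and 442 (WT) in marrow and 147 (KO) and 12.5 (WT) in spleen. Most of the sum on spleen KO came from S100a9 and S100a8, with levels of 6.85 and 4.61. The 14 macrophage and monocyte markers share Csf1r, Fcgr1 and Lyz2 with the Spi1 or Spib list. Of the 14, 3 were at least 2-fold higher in KO marrow with 0 lower (median 0.15). In KO spleen 8 were at least 2-fold higher and 1 lower (median 1.06). The 14 markers summed to 310 and 111 in marrow and to 198 and 77.9 in spleen. Without Lyz2, which neutrophils also express, the sums were 27.2 and 21.4 in marrow and 142 and 57.1 in spleen. B-lineage markers summed to 522 and 696 in marrow and to 1144 and 1158 in spleen. Of 9 B-lineage markers 4 were at least 2-fold lower on KO in marrow, with 0 higher, and 4 lower and 2 higher in spleen. The part of other cells in the differences of the factors was not tested.

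Of 8 genes repressed by Ikzf1 or Ikzf3, 2 were higher (Dntt and Vpreb1) and 0 lower in marrow (median -0.05). In spleen 2 of 7 were higher, Vpreb1 and the growth regulator Myc (1.40), and 1 lower, the Notch target Hes1 (-1.52), with a median of 0.72. Of the Bach2-repressed genes 2 of 5 were higher in marrow (median 0.43) and 2 of 4 in spleen (median 0.82), with 0 lower. Cebpb, a myeloid factor, was higher in both tissues (2.35 and 3.04), the oxidoreductase Nqo1 in marrow (1.68) and the haem-degrading enzyme Hmox1 in spleen (1.55).

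The 25 other regulators of B-lineage cells had medians of -0.09 in marrow (3 higher, 2 lower) and 0.41 in spleen (5 higher, 6 lower), with Sox4 at its bound. Id2, another inhibitor of E proteins, was higher in both tissues (1.63 and 1.96), and Pou2f2, the Oct-2 factor, lower in both (-1.70 and -3.20). In marrow the ETS factor Erg (2.05) and the Ikaros relative Ikzf2 (1.15) were also higher and Sox4 lower (-1.31). In spleen the E protein Tcf12 (2.21) and Pou2af1 were also higher, and Id3 and Runx1 (-2.40), a factor of early haematopoiesis, lower. In spleen Sox4 was not well above background on KO and lay at least 9.11-fold below WT. Of 12 control genes 0 were 2-fold apart in marrow (median 0.14). In spleen the median was 0.11, but 1 was higher, Hprt (1.55), and 2 lower, Gapdh (-1.32) and Ywhaz (-1.33), differences of about the size of those of Pax5, Ebf1 and Spib.

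**Figure D4:**
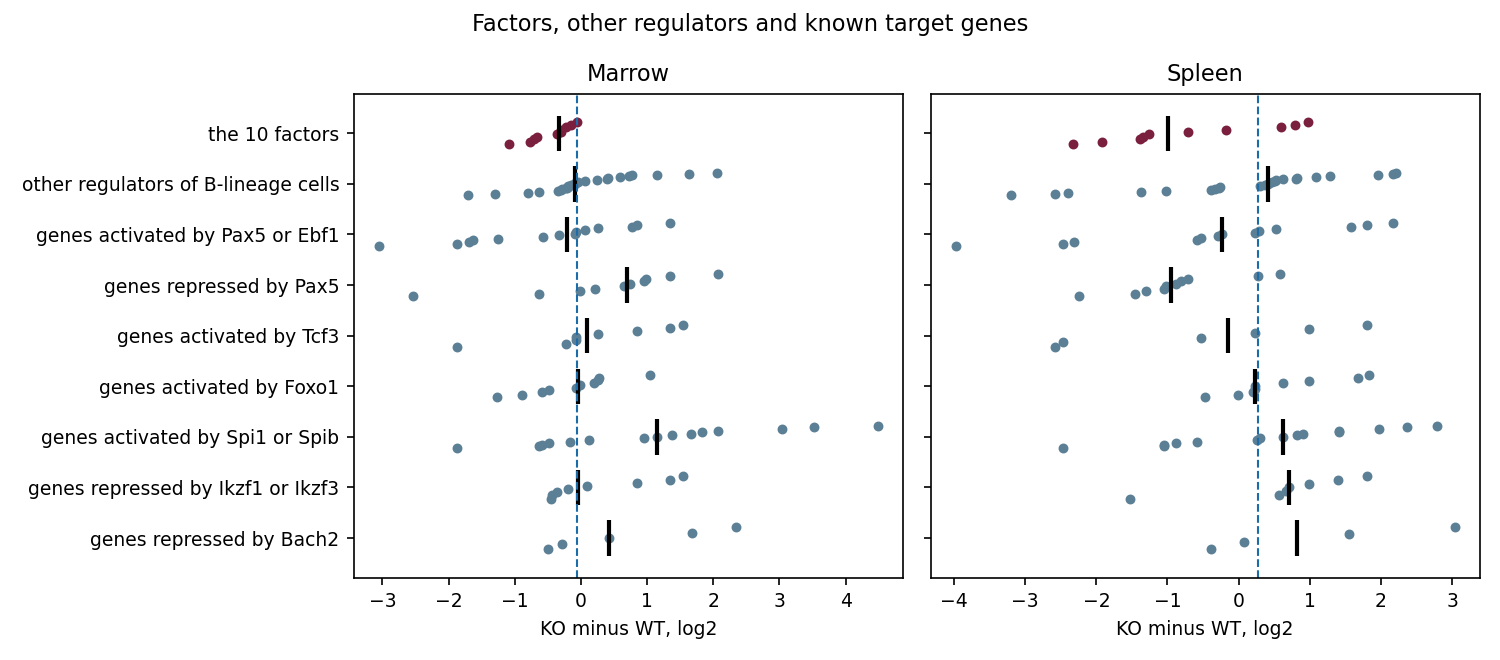
Difference between the KO and the WT array (log2) for the 10 factors, other regulators and lists of target genes, in marrow (left) and spleen (right). Each point is 1 gene well above background on both arrays, black ticks are list medians, and the dashed line is the median of all such genes. Genes activated by Spi1 or Spib have the highest median in marrow (1.15).

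Promoters from RefSeq (build GRCm38.p6, 250 bases before to 50 after the start) matched 8 of the 10 genes, in 11 promoters, and 7 motifs were searched on both strands, chosen with results of these arrays known. The MEF2 consensus was in 0 of 11 and in 3.19% of all 32851 promoters. The Ebf1 motif TCCCNNGGGA was in 1 (Foxo1; 0.904% of all), and the shorter CCCNNGGG, which lies inside it, in 4 (Foxo1, Ikzf1, Irf8, Spib; 13.7%). An ETS consensus was in 0 (5.57%), an NF-kB consensus in 1 (Spib; 4.51%), the E-box CAGGTG in 1 (Irf8; 20.2%) and the octamer ATGCAAAT in 0 (1.74%). A match is a description of letters in this window, and no match says nothing about the factor.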

How the data were processed

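B220 cells of marrow and spleen from Mef2c KO and C57BL/6 mice were measured on 4 arrays, 1 per group, grouped by the labels. The deposited scanner files hold linear intensity values that the authors' scans gave after background correction in Agilent's Feature Extraction software, per the file headers; the deposited series matrix equalled this intensity at every spot. Control spots and 72 to 85 outlier spots per array were left out, and log2 of the intensity minus the array's 75th percentile was computed. Spots of a probe were averaged, and a gene was given by its brightest probe. It was measured in a comparison when well above background on 1 of both arrays. Genes were named through 25097 accessions in the RefSeq table of GRCm38.p6, used for names only; 6333 probes had a current symbol and 9744 kept the file's name. Groups were compared by differences and a 2-fold threshold, and with limma 3.58.1 in R 4.3.3 (tissue and genotype as terms, Benjamini-Hochberg adjustment). The fit was also run on simulated data, with independent noise and genotype effects larger than any estimated for the factors. That run cannot show how the fit does at the sizes found here or with differences shared by a whole array. Alternatives were another background correction, 4 other scalings, 2 other probe rules, no filter, an intensity trend and thresholds of 1.5-fold and 3-fold. The members, lists and motifs were chosen with earlier results of these data known. Named genes are all members, and the 2 genes and the factor nearest to each by Euclidean distance over the 4 arrays. In lists other than the cell type markers, up to 3 genes in each direction are named. These have the largest differences among genes at least 2-fold apart. The marker lists reported are given by counts, medians and sums, with S100a8, S100a9 and Lyz2 named for the sums. All 7 motifs searched are reported. The number of arrays limits the precision.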

Additional observations from a re-analysis of the deposited data

Results flagged for a closer look

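In 3 factors the difference between the KO and the WT array, by the brightest probe, had opposite signs in the tissues. Each group had 1 array, and the difference between tissues was not tested. The share of all genes with opposite signs was not counted. Ikzf1 was higher on KO by 0.80 in spleen and lower in marrow (-0.37), and its spleen value ran from 0.13 to 1.22 over the settings. Ikzf3 was higher by 0.98 in spleen and lower in marrow (-0.31) by its brightest probe, while the spleen value ran from -2.54 to 1.41 over the settings. Tcf3 was higher by 0.59 in spleen and at -0.06 in marrow, and its spleen value ran from -0.12 to 1.02. The marrow values of Ikzf3 and Tcf3 lay within 2 combined spot SDs, 0.31. The second Tcf3 probe was lower on KO in both tissues (-0.86 in marrow, -0.57 in spleen). So were the Ikzf3 probes NM_011771 (-1.22 and -2.54) and the dim AF001293 (-0.68 and -0.76), while AK036657 was near 0 in both (0.01 and -0.01).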

How the results depend on the processing

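No paired analysis was possible because each group has 1 array and the labels give no replicate numbers. Leaving out an array was not possible for the same reason, and the slide as a block was not run, since each slide is 1 tissue and tissue is a term of the fit. Of the KO against WT differences, all 10 in marrow stayed below 0 under 9 settings, the main one included. Among these, no filter left the factor values unchanged, and the other probe rules cannot change a factor with 1 probe. In spleen 7 factors kept their sign under all 9, and Ikzf3 and Tcf3 under 7 and Irf8 under 8. The marrow count of factors at least 2-fold lower, 1, became 0 with normexp, cyclic loess or a 3-fold threshold, 2 with the median over probes or the probe nearest the 3′ end, and 4 at 1.5-fold. The spleen count lower, 5, became 2 with array median scaling or at 3-fold, and the count higher, 0, became 3 with array median scaling or at 1.5-fold. With array median scaling the spleen median over genes well above background on both arrays was 0.69, and 79.7% of all genes 2-fold apart were higher. Between WT tissues the count lower, 1, became 3 at 1.5-fold, and the count higher, 0, became 1 with the percentile over common probes, quantile, cyclic loess, the median over probes, the 3′ probe or 1.5-fold. Between KO tissues the count lower, 5, became 3 with array median scaling and 2 at 3-fold. The count higher, 2, became 1 with normexp, common probes, quantile, cyclic loess, the 3′ probe or 3-fold, and 0 with the median over probes. The shares of all genes called at these other thresholds and settings were not counted, so the changed factor counts have none beside them. By limma 0 factors passed for genotype in every setting, while the calls over all genes, 2, ran from 0 to 632. For tissue the count of factors, 0, became 3 with normexp (Tcf3, Ikzf3, Bach2) and 1 (Tcf3) with the median over probes, no filter or an intensity trend. The tissue calls over all genes, 1556 of 22059, also rose in these settings. They were 2351 of 22059 with normexp, 1669 of 22086 with the median over probes, 2689 of 28304 with no filter and 2464 of 22059 with an intensity trend. Where 0 factors passed, the calls ran from 674 of 22059 (percentile over common probes) to 2245 of 22059 (array median scaling). The cause of these changes was not tested. The share higher among genes 2-fold apart in marrow, 63.2%, became 75.3% with normexp. It went from 49.9% to 38.9% between WT tissues and from 52.7% to 65.1% between KO tissues with array median scaling.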
